A study of Homo sapiens with 12 samples.

Results

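The heat shock proteins and their J-domain cochaperones were followed in 3 human carcinoma lines treated with epigenetic inhibitors. The genes were chosen by name: the HSPA, HSPB, DNAJA, DNAJB and DNAJC families with HSPH1, HSP90AA1, HSP90AB1, HSPD1 and HSPE1, and without HSPA5, DNAJB9 and DNAJC3, which belong to the endoplasmic reticulum stress response. The rule matched 70 of the 25647 genes used, and 63 of the 70 passed the filter on low counts. By class these were 13 HSP70 and HSP110 genes of the cytosol and nucleus, 2 cytosolic HSP90 genes, 3 mitochondrial chaperones, HSPA13 of the endoplasmic reticulum, 8 small heat shock proteins, and 4, 12 and 27 J-domain genes of classes A, B and C. HSPB11 was placed with the small heat shock proteins by its name alone, and its current RefSeq symbol is IFT25. Poly(A) RNA was sequenced from MHCC97H, a hepatocellular carcinoma line, A549, a lung adenocarcinoma line, and HCT116, a colorectal carcinoma line. The treatments were 1 µM TSA (trichostatin A, which blocks histone deacetylases), 50 µM GSK126 (which blocks EZH2, a histone methyltransferase) and 100 µM S2101 (which blocks LSD1, a histone demethylase), and a culture of each line was left untreated. With 1 library per line and condition there were 12 libraries, so the 3 libraries of a condition are 3 different lines and not repeat cultures. HCT116 was cultured in RPMI and the other lines in DMEM, so an effect of the medium and one of the line cannot be told apart, and treatment times and any vehicle were not given in the sources used here.

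HSP70 proteins bind exposed hydrophobic stretches of client proteins and release them in cycles of ATP hydrolysis. J-domain proteins deliver clients and start that hydrolysis, while the HSP110 proteins, distant HSP70 relatives, act as nucleotide exchange factors that reset the cycle. HSP90 receives partly folded kinases and receptors from HSP70, the HSP60 ring and its HSP10 lid fold proteins inside mitochondria, and small heat shock proteins hold unfolded proteins without using ATP. Many of these genes are induced by heat shock factor 1 through heat shock elements, which are inverted repeats of the unit GAA in their promoters.

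The 12 libraries held 14468304 to 19061367 gene counts, and a gene with 3 counts had 0.157 to 0.207 CPM (its counts scaled by the total). Those 3 counts are the detection limit used here, for counting error alone. In A549, 39 genes had 0 reads when untreated and reached 5 CPM or more with TSA, and their summed level in the S2101 library was 7.99% of the TSA level, with a read for each of the 39. The same sum was 0.851 to 4.64% in the other GSK126 and S2101 libraries, so results that involve S2101 are also given without the A549 S2101 library where that changes a call. Of 6 liver markers, 2 to 4 reached 1 CPM in the MHCC97H libraries, and TTR was at 0 in the untreated one. In A549, 1 of 6 lung epithelium markers reached 1 CPM and SFTA2 was at 0 in each of the 4 libraries. Of 6 colon epithelium markers, 1 or 2 reached 1 CPM in HCT116 and CDX1 was at 0 throughout, while 4 reached 1 CPM in MHCC97H, where the list summed to 150 to 545 CPM. The liver list summed to only 10.2 to 15.7 CPM in the MHCC97H libraries. It stood at 12.2 CPM in untreated MHCC97H, against 9.27 CPM in untreated A549. The markers thus gave little sign of the tissue of origin of any of the 3 lines. Fibroblast markers summed to 60, 99.8 and 73.8 CPM in the TSA libraries of MHCC97H, A549 and HCT116, against 9.61, 11.5 and 26.3 CPM in the untreated ones. Of those 6 markers, 5, 1 and 3 reached 1 CPM under TSA, against 2, 1 and 1 untreated. Most of the A549 sum thus came from 1 gene. Leukocyte markers summed to 27.3 to 28 CPM under TSA, against 17.2 to 21 CPM untreated, and the part of either list in the TSA results was not tested.

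The chaperone genes took between 0.945 and 1.63% of all counts in a library, and most of it came from a few abundant genes. On the per-length scale of RPKM (reads scaled for transcript length and library size), HSP90AB1, the constitutive cytosolic HSP90, had the highest mean in untreated cells with 1158 ± 631 RPKM (SD, n = 3). HSP90AA1, its stress-inducible counterpart, followed with 842 ± 287 RPKM, and HSPD1, mitochondrial HSP60, and HSPA8, the constitutive HSC70, stood at 601 ± 67.8 and 599 ± 209 RPKM. These spreads are between lines, and the order of the 4 genes differed from line to line. HSP90AB1 ranked 1, 2 and 1 among the chaperones in untreated MHCC97H, A549 and HCT116, and HSP90AA1 ranked 4, 1 and 2. HSP90AB1 lay above HSPD1 and HSPA8 in each line, and the order was not tested. HSPB1, the small heat shock protein HSP27, had 270 ± 80.5 RPKM, HSPA9, mitochondrial HSP70, had 213 ± 43.6 RPKM and DNAJA1 had 213 ± 85.9 RPKM. HSPE1, mitochondrial HSP10, had 135 ± 14 RPKM, and HSPA1A, the inducible HSP70, had 125 ± 82.4 RPKM. Below these lay DNAJB1, the cochaperone known as HSP40, with 62.5 ± 10.5 RPKM. Between 53 and 59 of the 70 genes reached 1 CPM in a library, and 64 to 68 had at least 1 read.

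Windows around the start sites of the chaperone genes held perfect heat shock elements more often than those of all genes. RefSeq start-site windows of GRCh38.p14 (250 bases before to 50 after a start) were present for 61 of the 70 genes and were searched for TTCNNGAANNTTC or GAANNTTCNNGAA, a run of 3 units and its reverse complement. A run of 3 units stood in the windows of 7 of the 61 genes (11.5%), against 0.608% of all 27305 genes with a window. The shorter TTCNNGAA or GAANNTTC, which reads the same on both strands and is contained in every run of 3, stood in 22 of the 61 (36.1%), against 16.2% of all genes. A match is a description of the letters and not of binding. The stretches below are shown because the 7 genes with 3 units include the most abundant chaperones, and because HSPA1A, HSPA1B and DNAJB1, the classical inducible genes, had runs of 2 units in these windows. The stretches of HSPD1, HSP90AA1, HSPA8 and DNAJA1 overlapped annotated exons, and the run of DNAJA1 began after the start, at position 4. A window can belong to a start inside the gene, as for HSPD1, whose stretch lies within the gene's span. A further run of 2 units in DNAJB1, at position 2 of another start, is not shown. Capitals mark the units of each run, and each sequence is given 5′ to 3′ on the gene's strand.
HSPD1 (chr2:197500063-197500090, minus strand): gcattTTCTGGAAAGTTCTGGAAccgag
HSP90AB1 (chr6:44247770-44247798, plus strand): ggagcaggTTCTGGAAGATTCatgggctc
HSP90AB1 (chr6:44247823-44247851, plus strand): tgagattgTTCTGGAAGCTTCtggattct
HSP90AA1 (chr14:102087112-102087140, minus strand): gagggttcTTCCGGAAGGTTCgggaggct
HSPA8 (chr11:123062171-123062199, minus strand): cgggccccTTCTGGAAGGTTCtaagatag
HSPA8 (chr11:123062346-123062374, minus strand): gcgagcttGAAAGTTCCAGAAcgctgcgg
HSPA6 (chr1:161524458-161524486, plus strand): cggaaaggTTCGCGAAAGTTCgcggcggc
DNAJA1 (chr9:33025268-33025296, plus strand): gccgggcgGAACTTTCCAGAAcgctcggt
DNAJB6 (chr7:157336865-157336893, plus strand): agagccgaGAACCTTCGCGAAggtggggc
HSPA1A (chr6:31815427-31815454, plus strand): gaaaaccctgGAATATTCccgacctggc
HSPA1B (chr6:31827623-31827650, plus strand): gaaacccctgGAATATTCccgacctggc
DNAJB1 (chr19:14518427-14518454, minus strand): gcgggctctgGAAGCTTCcgccggacgg
DNAJB1 (chr19:14518457-14518484, minus strand): gggcggggcgGAAGGTTCtggagggggc
In HSPD1 overlapping runs of 3 make 1 stretch of 4 units, and the same run of 2 units serves the windows of HSPA1A and of HSPA1L, which lies beside it on the other strand. HSPE1, whose start faces that of HSPD1 on chromosome 2 (HSPD1 at 197486584 to 197500274, HSPE1 at 197500379 to 197503449), had no run of 2 or 3 units in its own window.

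Of the 3 compounds, TSA was the one with chaperones called in the fit to all 12 libraries. All 3 mitochondrial chaperones matched by the rule and the exchange factor HSPH1 fell, as did HSP90AB1 and most of the called J-domain genes. A smaller set that included DNAJB1, HSPA2 and DNAJC1 rose. With edgeR (quasi-likelihood F test, p adjusted by Benjamini-Hochberg over 16929 genes), 29 of the 63 tested chaperone genes passed an adjusted p of 0.05 (46%), 20 lower (31.7%) and 9 higher (14.3%). Of all genes tested, 34.6% passed, 17.2% lower and 17.4% higher, so the share of chaperones that rose was near the share of all genes and the share that fell was larger. The median fitted log2 change was 0.02 over the 63 genes and 0.08 over all genes tested. The levels of TSA and untreated libraries did not overlap for 6 chaperones that were higher under TSA (9.52%, against 11.7% of all genes) and for 12 that were lower (19%, against 11.2%). Leaving out a line changed the calls: without A549 only HSPH1 of the 29 remained, without MHCC97H 10 remained (HSPH1, HSPD1, HSPE1, HSPA9, HSPA2, DNAJB5, DNAJC1, DNAJC2, DNAJC7 and DNAJC9), and without HCT116 26 remained. In bulk RNA, fewer cells that express a gene and less of its RNA per cell cannot be told apart.

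**Figure D1:**
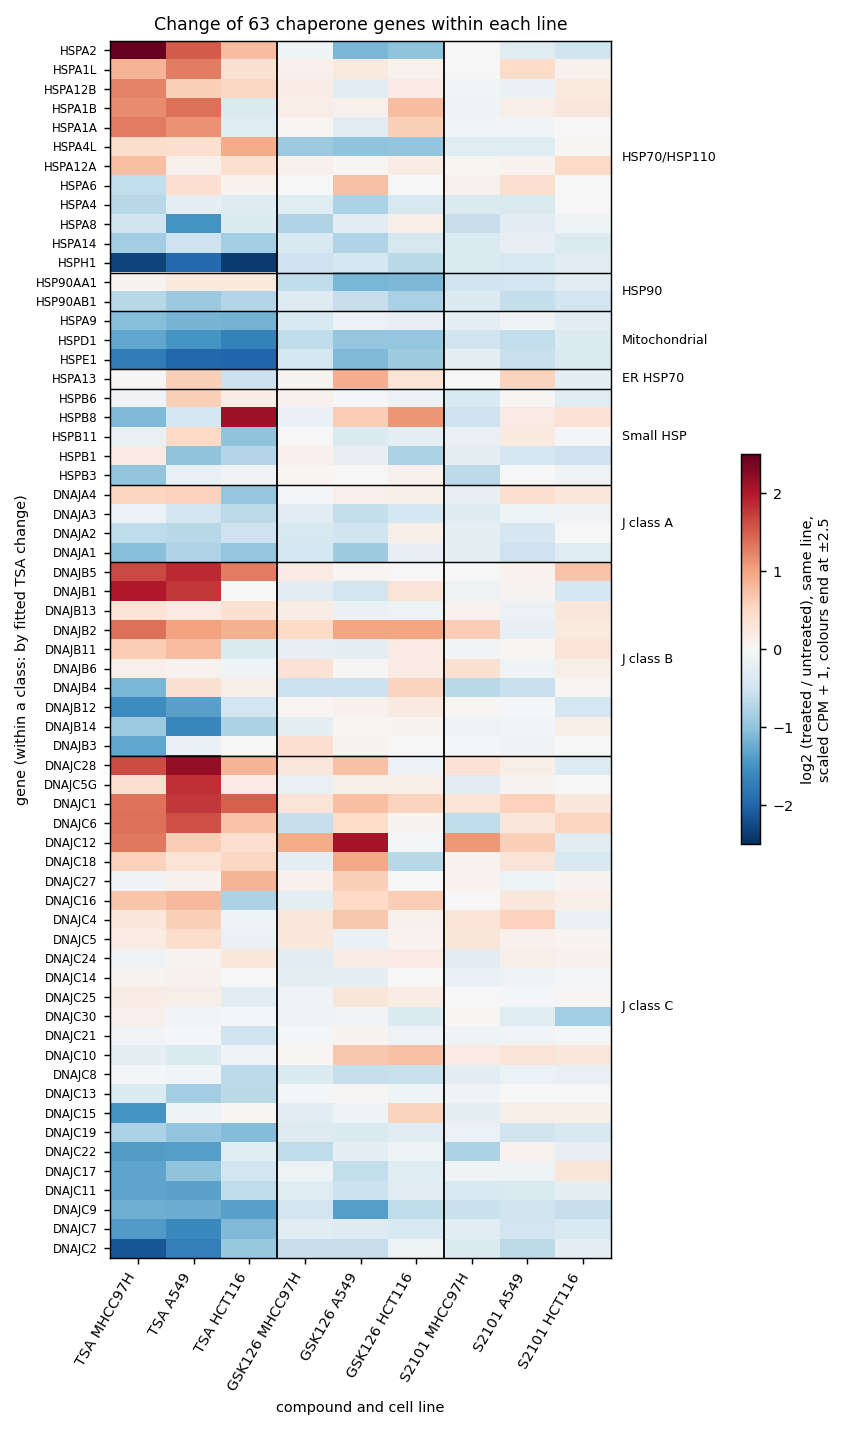
Log2 ratio of the treated to the untreated library of the same line for the 63 tested chaperone genes (rows, grouped by class), in 9 columns for TSA, GSK126 and S2101 in MHCC97H, A549 and HCT116; ratios are of scaled CPM plus 1 and colours end at ±2.5. Under TSA, HSPH1, HSPE1, HSPD1 and HSPA9 were lower in each line, while HSPA2, DNAJB5 and DNAJC1 were higher in each line.

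HSPH1, a cytosolic HSP110, showed the smallest p of all the chaperone genes. It had 37.1, 61.7 and 37.8 CPM in TSA-treated MHCC97H, A549 and HCT116, against 189, 242 and 204 CPM in the untreated lines (CPM scaled by the trimmed mean of M-values, as for all levels below). The highest TSA library lay below the lowest untreated one. The fitted log2 change was -2.25 ± 0.15 (SE, adjusted p = 0.00111 in edgeR's quasi-likelihood test), which is 4.74-fold lower. It was the only one of the 29 calls that remained in the fit without A549 (adjusted p = 0.0374).

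The 3 mitochondrial chaperones matched by the rule fell together, and each group of 3 TSA libraries lay wholly below the untreated group. HSPE1 had 44.3, 38.9 and 27.1 CPM in MHCC97H, A549 and HCT116 under TSA, against 150, 154 and 111 CPM untreated, a log2 change of -1.93 ± 0.16 (adjusted p = 0.00111). HSPD1, the ring that HSPE1 closes, had 597, 514 and 475 CPM under TSA, against 1473, 1432 and 1520 CPM untreated, a change of -1.48 ± 0.14 (adjusted p = 0.00111). HSPA9, which also pulls imported proteins into the matrix, had 309, 396 and 357 CPM under TSA, against 645, 883 and 816 CPM untreated, a change of -1.14 ± 0.12 (adjusted p = 0.00119). The median ratio of the 3 genes within a line was -1.48 ± 0.19 on the log2 scale (SD, n = 3 lines), against 0.02 over all genes. DNAJC19, the J-domain protein of the mitochondrial import motor, also fell, with 11.3, 7.46 and 9.74 CPM under TSA against 20.4, 15.8 and 21.9 CPM untreated (log2 change -1.03 ± 0.18, adjusted p = 0.00403). DNAJA3, the class A protein of the mitochondrial matrix, did not pass (-0.42 ± 0.16, adjusted p = 0.07). Without A549, the adjusted p of HSPD1 was 0.0593, and HSPE1 and HSPA9 also lost their calls.

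The cytosolic HSP90 genes did not share a direction under TSA. HSP90AB1 had 1458, 1266 and 2962 CPM in TSA-treated MHCC97H, A549 and HCT116, against 2357, 2404 and 4900 CPM untreated. It was lower in each line, though the groups overlapped because HCT116 had the highest level in both, and its log2 change was -0.78 ± 0.14 (adjusted p = 0.00453). HSP90AA1 had 2395, 4603 and 4770 CPM under TSA, against 2295, 3867 and 4025 CPM untreated, which gave 0.19 ± 0.17 (adjusted p = 0.391). The difference between these 2 genes was not itself tested.

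Members of the cytosolic HSP70 and HSP110 class went both ways under TSA, with 3 of 12 tested genes higher and 2 lower. Of all genes tested, 17.4% were called higher and 17.2% lower. The median fitted log2 change of the class was 0.52. HSPA2, best known from spermatogenesis, had 22.3, 151 and 6.86 CPM under TSA, against 2.81, 51.5 and 3.57 CPM untreated in MHCC97H, A549 and HCT116. It was higher in each line and highest in A549 in both conditions, with a log2 change of 1.82 ± 0.34 (adjusted p = 0.0051). HSPA4L, an HSP110 protein like HSPH1, had 33.8, 40.8 and 61.3 CPM under TSA, against 24.9, 30.1 and 32 CPM untreated. Those groups did not overlap, and the change was 0.61 ± 0.16 (adjusted p = 0.0206), lost when any 1 of the 3 lines was left out (adjusted p 0.0603 to 0.122). HSPA1L, a testis-expressed HSP70, rose by 1.35 ± 0.32 from a low level (adjusted p = 0.0135). Some of the HSPA1L reads may be shared with its related neighbours HSPA1A and HSPA1B. HSPA14, an HSP70 that works at the ribosome, fell by 0.76 on the log2 scale (adjusted p = 0.00936).

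The stress-inducible pair HSPA1A and HSPA1B and the constitutive HSPA8 were not called. HSPA1A had 1433, 633 and 99.1 CPM in TSA-treated MHCC97H, A549 and HCT116, against 592, 284 and 123 CPM untreated. HSPA1B had 254, 106 and 31.6 CPM under TSA, against 111, 39.9 and 40.8 CPM untreated. Both were thus higher in MHCC97H and A549 and lower in HCT116, and their fitted changes of 0.84 ± 0.37 and 0.91 ± 0.39 gave adjusted p of 0.104 and 0.101. The genes are near copies of each other, so reads may have been assigned to either and they are not independent evidence. HSPA8 had 1502, 630 and 674 CPM under TSA, against 2129, 1788 and 860 CPM untreated, lower in each line with a change of -0.74 ± 0.27 (adjusted p = 0.0587). Its counts, like those of HSPD1, HSPE1, HSP90AA1, HSP90AB1 and DNAJA1, may include or lack reads shared with processed pseudogenes, since the handling of such reads was not given in the sources used here.

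**Figure D2:**
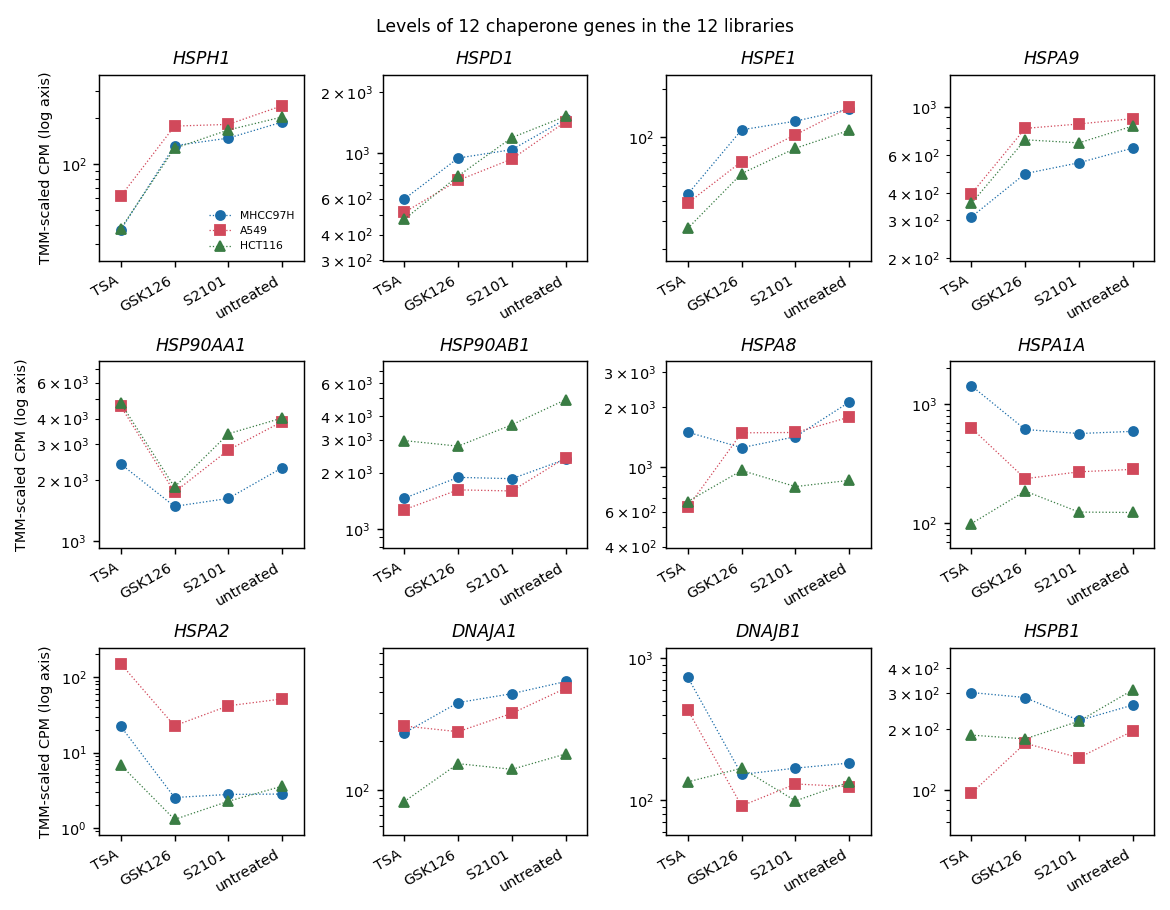
Levels of 12 chaperone genes in the 12 libraries, as scaled CPM on a log axis, with 1 point per library, conditions on the x axis in the order TSA, GSK126, S2101 and untreated, and dotted lines joining the libraries of a line. HSPH1, HSPD1, HSPE1 and HSPA9 were lowest under TSA in every line, HSP90AA1 was lowest under GSK126 in every line, and HSPA1A and DNAJB1 were highest under TSA in MHCC97H and A549 but not in HCT116.

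The J-domain genes, which choose the clients and the place of HSP70 action, were called lower for 13 and higher for 6 of 40 tested (32.5 and 15%, against 17.2 and 17.4% of all genes). In class A, whose proteins resemble bacterial DnaJ, DNAJA1 had 225, 248 and 85.2 CPM in MHCC97H, A549 and HCT116 under TSA, against 466, 424 and 167 CPM untreated. It was lower in each line (log2 change -0.92 ± 0.18, adjusted p = 0.00559), although untreated HCT116 lay below the TSA libraries of the other lines. DNAJA2, its close cytosolic relative, had 91, 80.7 and 61.9 CPM under TSA, against 142, 132 and 89.4 CPM untreated (-0.63 ± 0.15, adjusted p = 0.0125).

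Class B was split evenly, with 3 of 10 tested genes higher and 3 lower, against 17.4 and 17.2% of all genes. DNAJB5 had 18.6, 18.4 and 16.5 CPM under TSA, against 5.20, 4.35 and 6.21 CPM untreated, without overlap (1.80 ± 0.29, adjusted p = 0.0031). DNAJB2, a neuronal cochaperone that directs clients to the proteasome, had 90.8, 62.2 and 47.1 CPM under TSA, against 34.6, 30.5 and 25 CPM untreated, again without overlap (1.12 ± 0.24, adjusted p = 0.00815). DNAJB1, the main partner of inducible HSP70, had 737 and 434 CPM in TSA-treated MHCC97H and A549, against 183 and 125 CPM untreated, but 135 CPM both in TSA-treated and in untreated HCT116. Its call (1.43 ± 0.43, adjusted p = 0.0311) was lost without MHCC97H (adjusted p = 0.235) or without A549 (adjusted p = 0.224), and the difference between lines was not tested. The lower genes included DNAJB12 and DNAJB14, a related pair of endoplasmic reticulum membrane proteins that recruit cytosolic HSP70 to degradation. DNAJB12 had 15.8, 23.8 and 25.2 CPM under TSA, against 49, 62.4 and 35 CPM untreated, and DNAJB14 had 26.2, 12.9 and 31.5 CPM under TSA, against 50.2, 42.1 and 55.1 CPM untreated. Neither pair of groups overlapped, and the changes were -1.11 ± 0.27 and -1.12 ± 0.21 (adjusted p = 0.0144 and 0.00517). DNAJB3 was called lower on few reads, with 1, 0 and 0 counts under TSA in MHCC97H, A549 and HCT116, against 23, 2 and 0 counts untreated.

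Class C, whose members share little beyond the J domain, had 8 of 26 tested genes lower (30.8%, against 17.2% of all genes) and 3 higher (11.5%, against 17.4%) under TSA. DNAJC2, the ribosome-bound partner of HSPA14, had 46.1, 24.9 and 30.1 CPM under TSA, against 204, 83.5 and 58.5 CPM untreated (log2 change -1.60 ± 0.22, adjusted p = 0.0021). DNAJC7, which passes clients between HSP70 and HSP90, had 52.3, 49 and 50.1 CPM under TSA, against 142, 151 and 109 CPM untreated (-1.39 ± 0.15, adjusted p = 0.00115). DNAJC9, a histone H3-H4 cochaperone, had 30, 57.5 and 45.8 CPM under TSA, against 71.3, 138 and 118 CPM untreated (-1.29 ± 0.20, adjusted p = 0.0027). For each of these 3 genes the TSA libraries lay below the untreated ones, and DNAJC2 and HSPA14, partners at the ribosome, both fell. DNAJC1, an endoplasmic reticulum membrane J protein that faces the ribosome, had 58.6, 96.2 and 69.8 CPM under TSA, against 22.2, 27.5 and 24.1 CPM untreated, a clear separation (1.58 ± 0.15, adjusted p = 0.00111). DNAJC6, the clathrin-uncoating auxilin, had 13.4, 32 and 28.5 CPM under TSA, against 4.57, 9.79 and 16.9 CPM untreated (1.39 ± 0.37, adjusted p = 0.0203). DNAJC28 had 38, 63 and 50 counts under TSA, against 2, 1 and 21 counts untreated, so its log2 change of 3.06 ± 0.71 (adjusted p = 0.0118) rests on low counts. DNAJC11, DNAJC13, DNAJC17 and DNAJC22 completed the called decreases, with log2 changes of -1.10, -0.62, -1.07 and -1.04.

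Small heat shock proteins gave no common change under TSA: of 5 tested genes, HSPB3 alone was called, on 1, 0 and 0 counts under TSA in MHCC97H, A549 and HCT116, against 16, 2 and 1 counts untreated. HSPB1 had 303, 96.8 and 187 CPM under TSA, against 263, 196 and 312 CPM untreated, higher in MHCC97H and lower in the other lines (-0.50 ± 0.24, adjusted p = 0.133). HSPA13, an HSP70 associated with the endoplasmic reticulum, had 25, 66.1 and 41.5 CPM under TSA, against 24.5, 43.5 and 60.8 CPM untreated (0.02 ± 0.22, adjusted p = 0.952).

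Summarised by class, the median log2 ratio within a line under TSA was -1.48 ± 0.19 for the mitochondrial chaperones, -0.59 ± 0.21 for class A J-domain genes and -0.30 ± 0.05 for the HSP90 genes (SD, n = 3 lines). It was 0.30 ± 0.37 for the HSP70 and HSP110 genes, 0.18 ± 0.15 for class B, -0.06 ± 0.07 for class C and -0.15 ± 0.06 for the small heat shock proteins. The class C median turned to 0.12 when libraries were scaled by their totals, and the small heat shock protein median to 0.06 when every gene with a read was kept. The first 3 classes and the small heat shock proteins were below 0 in each line. For the small heat shock proteins the median was the ratio of HSPB11 in MHCC97H (-0.19) and of HSPB3 in A549 and HCT116 (-0.19 and -0.08). HSPB3 had 2 and 1 counts in untreated A549 and HCT116 and 0 under TSA, so the sign of that median rests on few reads. The HSP90 median is the midpoint of 2 genes that went opposite ways in MHCC97H, A549 and HCT116. HSP90AA1 had ratios of 0.06, 0.25 and 0.24 there, and HSP90AB1 had -0.69, -0.92 and -0.73. The HSP70 and HSP110 median was above 0 in MHCC97H and A549 and -0.11 in HCT116. Scaling by library totals also moved the median of all genes under TSA to 0.15 on average.

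**Figure D3:**
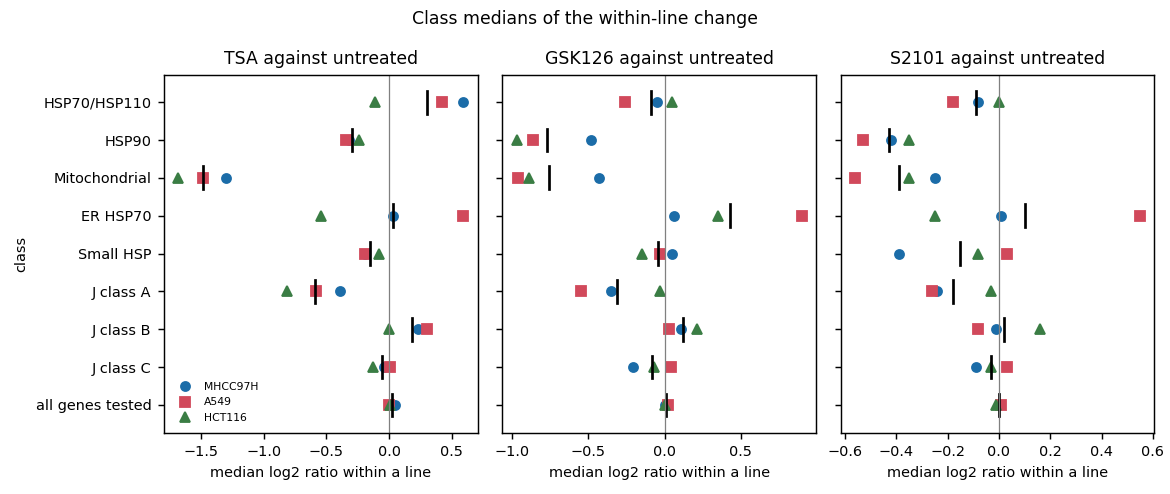
Median log2 ratio of treated to untreated within a line for each class, in 1 panel per compound, with a symbol per line, a black bar at the mean of the 3 lines, all tested genes at the bottom and a separate x scale in each panel. The mitochondrial chaperones lay at -1.48 ± 0.19 under TSA, -0.76 ± 0.29 under GSK126 and -0.39 ± 0.16 under S2101 (SD, n = 3 lines).

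The changes under TSA were also counted by heat shock element, where 17.4% of all genes tested were called higher and 17.2% lower. Of the 7 chaperones with a run of 3 units, all tested, 0 were called higher and 3 lower (HSPD1, HSP90AB1 and DNAJA1). Their median fitted log2 change was -0.74. Of 50 tested genes whose windows lacked the run, 8 were called higher and 14 lower, with a median of 0.03. With the run of 2 units, 4 of 21 tested genes were called higher and 5 lower (median 0.04), against 4 higher and 12 lower of 36 without it (median -0.08). DNAJB1 was the gene with a run of 2 units and the largest fitted increase. These are counts over members chosen by name, and no test was made of them.

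**Figure D4:**
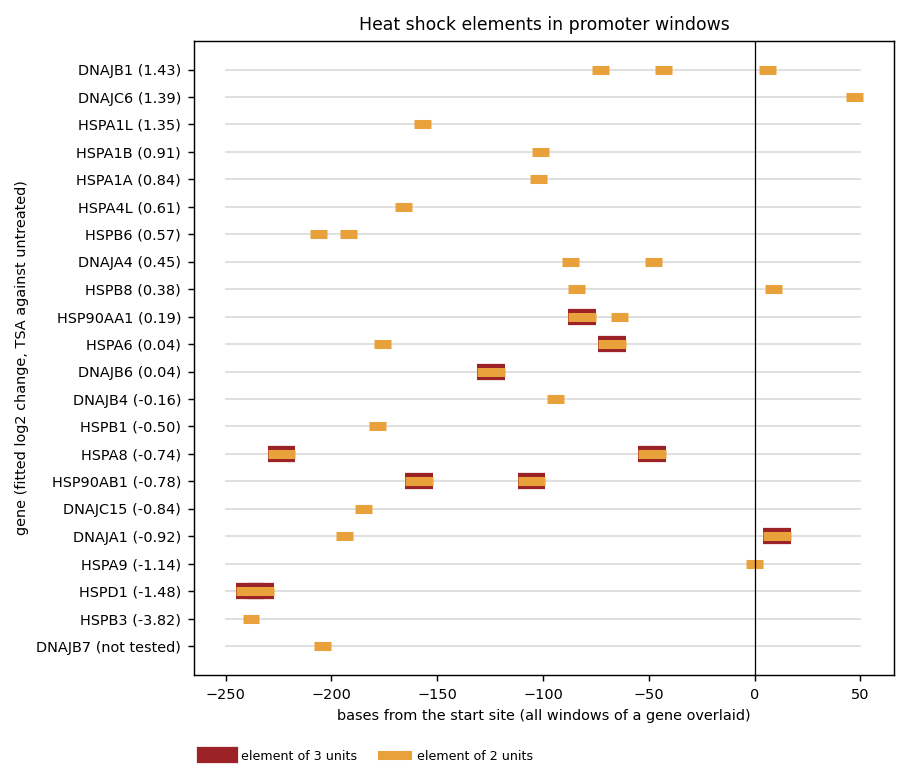
Position of runs of 3 heat shock units (dark red) and of 2 units (orange) relative to the start site, in bases, for the 22 chaperone genes with a match, ordered by their fitted log2 change under TSA, with the windows of different start sites of a gene overlaid. The 7 genes with a run of 3 units lie between a change of 0.19 (HSP90AA1) and -1.48 (HSPD1).

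Under GSK126 the HSP90 genes, HSPD1, HSPE1 and the HSP110 genes had lower levels in each line, but whether they were called depended on the tool and on the libraries in the fit. In the model of all 12 libraries edgeR called 0 chaperones and 0% of all genes, although 18 chaperones and 2809 genes of 16929 had an unadjusted p under 0.05. DESeq2 on the same libraries called 10 of 63 chaperones (15.9%), 7 lower and 3 higher, against 7.16% of all genes, 3.83% lower and 3.33% higher. Without the 3 TSA libraries, edgeR called 13 of 62 chaperones (21%), 11 lower (17.7%) and 2 higher (3.23%), against 13% of all genes, 6.63% lower and 6.42% higher. Both alternatives called HSP90AA1, HSP90AB1, HSPD1, HSPE1, HSPH1, HSPA4L and DNAJC9 lower, and DNAJB2 and DNAJC1 higher. In edgeR on only the 6 libraries compared, 2 chaperones and 434 genes were called. Those chaperones were HSPA4L (lower, adjusted p = 0.0426) and DNAJB2 (higher, adjusted p = 0.0492). The other genes just named missed the limit there, with adjusted p from 0.0518 (HSP90AA1 and HSPD1) to 0.141 (HSP90AB1). Adjusted p values for GSK126 against untreated are from edgeR without the TSA libraries unless stated otherwise, and the fit to all 12 libraries gave at least 0.0903 for every chaperone.

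Among the HSP90 and HSP110 genes, HSP90AA1 had 1483, 1742 and 1845 CPM in GSK126-treated MHCC97H, A549 and HCT116, against 2295, 3867 and 4025 CPM untreated, without overlap (log2 change -0.93 ± 0.15, adjusted p = 0.0182). HSP90AB1 had 1885, 1616 and 2766 CPM under GSK126, against 2357, 2404 and 4900 CPM untreated (-0.54 ± 0.13, adjusted p = 0.032). HSPA4L had 12.8, 14.4 and 15.8 CPM under GSK126, against 24.9, 30.1 and 32 CPM untreated (-0.99 ± 0.14, adjusted p = 0.014). It was lower than untreated with GSK126 and higher than untreated with TSA, without overlap in either comparison. HSPH1 had 132, 178 and 127 CPM under GSK126, against 189, 242 and 204 CPM untreated (-0.52 ± 0.11, adjusted p = 0.0256), and HSPA4, the third HSP110 gene, had a log2 change of -0.47 ± 0.13 (adjusted p = 0.0485). HSPA2, which rose under TSA, had 2.53, 22.6 and 1.29 CPM under GSK126, against 2.81, 51.5 and 3.57 CPM untreated (-0.94 ± 0.24, adjusted p = 0.0339). HSPA14 (-0.49 ± 0.13, adjusted p = 0.0415) and DNAJC8 (-0.46 ± 0.11, adjusted p = 0.0328) completed the 11 lower calls.

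Of the mitochondrial chaperones, HSPD1 had 948, 737 and 775 CPM under GSK126 in MHCC97H, A549 and HCT116, against 1473, 1432 and 1520 CPM untreated, well separated (-0.83 ± 0.13, adjusted p = 0.0179). HSPE1 had 111, 70.7 and 59.5 CPM under GSK126, against 150, 154 and 111 CPM untreated (-0.79 ± 0.14, adjusted p = 0.0191). HSPA9 had 491, 796 and 704 CPM under GSK126, against 645, 883 and 816 CPM untreated, and was not called in any of these fits (adjusted p = 0.346 with all 12 libraries). DNAJC9 had 51, 53 and 75.5 CPM under GSK126, against 71.3, 138 and 118 CPM untreated (-0.79 ± 0.18, adjusted p = 0.0286). Of the higher genes, DNAJB2 had 49.5, 61.5 and 50.5 CPM under GSK126, against 34.6, 30.5 and 25 CPM untreated (0.90 ± 0.22, adjusted p = 0.0321). DNAJC1 had 27.9, 47 and 35.8 CPM under GSK126, against 22.2, 27.5 and 24.1 CPM untreated (0.59 ± 0.13, adjusted p = 0.0276). DNAJC12, a cochaperone of aromatic amino acid hydroxylases, reached 48.4 CPM in GSK126-treated A549, against 10.7 CPM in untreated A549, with 9.04 and 3.06 CPM under GSK126 against 4.28 and 3.16 CPM untreated in MHCC97H and HCT116 (adjusted p = 0.236 with all 12 libraries). In the count of groups without overlap, 7 chaperones were lower (11.1%, against 5.44% of all genes) and 2 higher (3.17%, against 3.73%).

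S2101 called 0 chaperones and 0% of all genes in edgeR, with 8 chaperones and 852 genes at an unadjusted p under 0.05. DESeq2 called 0 chaperones and 0.136% of all genes (0.112% higher and 0.0236% lower), and edgeR without the TSA libraries called 0 of either. HSPD1 had 1043, 939 and 1195 CPM in S2101-treated MHCC97H, A549 and HCT116, against 1473, 1432 and 1520 CPM untreated, and HSPH1 had 148, 182 and 168 CPM, against 189, 242 and 204 CPM untreated. Together with DNAJA3 these were the 3 chaperones whose S2101 libraries lay wholly below the untreated ones (4.76%, against 2.58% of all genes), and DNAJC1 alone lay wholly above (1.59%, against 1.59%). The fitted log2 change was -0.48 ± 0.14 for HSPD1 and -0.34 ± 0.14 for HSPH1, both with adjusted p = 0.939. Without the A549 S2101 library, which stood apart above, 0 chaperones were called as before.

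The 3 compounds shared the same untreated libraries, so their changes are not independent and their values can only be set side by side. HSPD1 had fitted log2 differences of -1.48, -0.85 and -0.48 under TSA, GSK126 and S2101 in the fit to all 12 libraries, and HSPE1 had -1.93, -0.81 and -0.40. HSPH1 had -2.25, -0.55 and -0.34, and HSP90AA1 had 0.19, -0.95 and -0.40. Compared directly, TSA and GSK126 differed for 23 of 63 chaperones (36.5%, against 29% of all genes), and TSA and S2101 for 25 (39.7%, against 26.6%). The count for TSA and GSK126 was 9 without MHCC97H, and 0 without A549 or without the line term. The count for TSA and S2101 was 0 without MHCC97H or without the line term, and 1 without A549. TSA libraries were lower than GSK126 libraries in HSPH1 (-1.70 ± 0.14, adjusted p = 0.00108), HSPE1 (-1.12 ± 0.15, adjusted p = 0.00248) and HSPD1 (-0.63 ± 0.14, adjusted p = 0.0122). They were higher in HSPA2 (2.82 ± 0.35, adjusted p = 0.00212), HSPA4L (1.62 ± 0.17, adjusted p = 0.00133) and HSP90AA1 (1.14 ± 0.17, adjusted p = 0.00292). HSP90AA1 was also higher under TSA than under S2101 (0.59 ± 0.17, adjusted p = 0.0299). Without the A549 S2101 library, 12 chaperones differed between TSA and S2101 in place of 25. GSK126 and S2101 differed for 0 chaperones and 0% of all genes, with 5 chaperones and 470 genes at an unadjusted p under 0.05 and 0 calls in DESeq2. The largest of those 5 differences was in HSPA4L, with 12.8, 14.4 and 15.8 CPM under GSK126 and 20, 24.4 and 32.7 CPM under S2101.

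Many chaperones differed between the lines. An F test on the cell line terms called 48 of 63 (76.2%), against 67.7% of all genes, and the libraries of a line are 4 differently treated cultures rather than repeats. DNAJA4, a class A cochaperone, was high in HCT116, with 60.6 ± 19.9 CPM there, 0.381 ± 0.329 CPM in MHCC97H and 0.48 ± 0.267 CPM in A549 (SD over 4 libraries). DNAJC15, a mitochondrial inner membrane J protein, had 0, 0, 3 and 1 counts in A549 under TSA, GSK126, S2101 and untreated, against 66 to 281 counts in the libraries of the other lines. HSPA2 averaged 66.8 ± 57.6 CPM in A549, 7.61 ± 9.81 CPM in MHCC97H and 3.49 ± 2.43 CPM in HCT116. HSPB8, the partner of BAG3 in selective autophagy, averaged 49 ± 15.2 CPM in MHCC97H, 10.8 ± 3.55 CPM in A549 and 7.48 ± 5.84 CPM in HCT116. HSPA1A followed the same order of lines, at 802 ± 421, 356 ± 186 and 133 ± 37.2 CPM. HSPD1 was among the 15 chaperones with no line difference called, at 1015 ± 360, 905 ± 392 and 991 ± 460 CPM (adjusted p = 0.363). DNAJC2 was highest in MHCC97H (137 ± 66.9 CPM), HSP90AB1 in HCT116 (3557 ± 964 CPM) and DNAJC18 in A549 (13.1 ± 4.05 CPM).

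**Figure D5:**
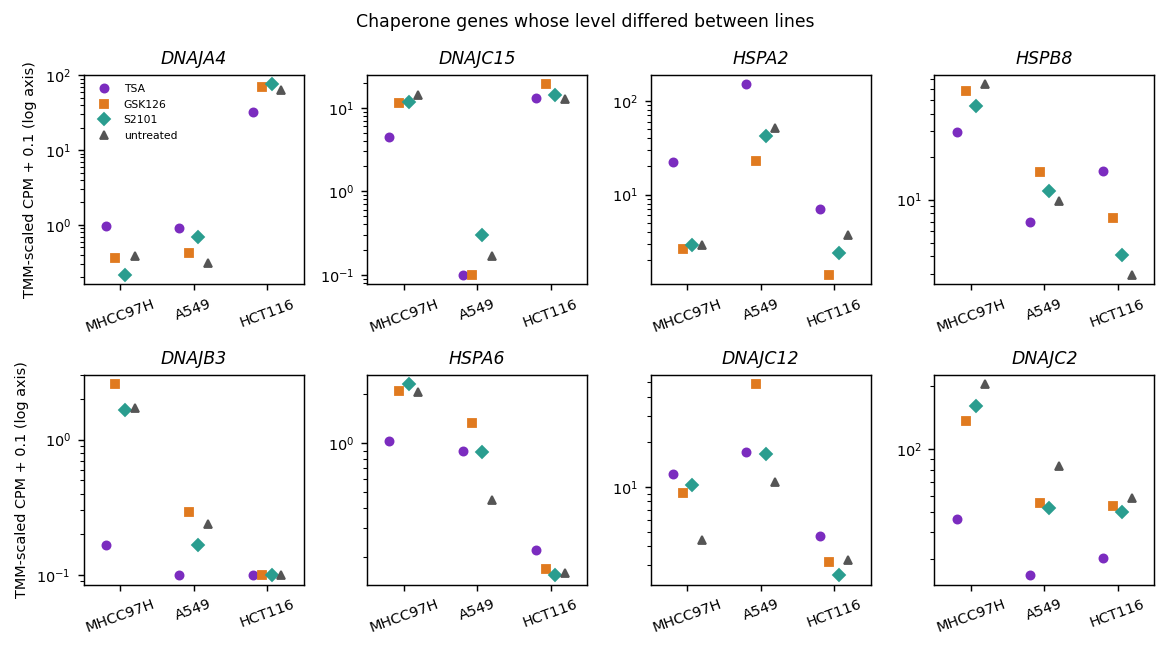
Level of 8 chaperone genes by cell line, as scaled CPM plus 0.1 on a log axis, with 1 point per library and the conditions marked by symbol. DNAJA4 was near the floor in MHCC97H and A549 (means of 0.381 and 0.48 CPM) and averaged 60.6 CPM in HCT116, and DNAJC15 was near the floor in A549.

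The 7 genes left out for low counts, DNAJB7, DNAJB8, DNAJC5B, HSPA7, HSPB2, HSPB7 and HSPB9, had at most 17 counts in a library. That maximum was DNAJC5B in TSA-treated HCT116, against 0 counts in untreated HCT116, and it had 4 and 2 counts in TSA-treated MHCC97H and A549 against 0 and 0 untreated. HSPA6, a strictly heat-inducible HSP70, was low throughout, with 0.928, 0.801 and 0.12 CPM under TSA and 1.97, 0.345 and 0.0586 CPM untreated in MHCC97H, A549 and HCT116 (adjusted p = 0.955). Its reads may be shared with its pseudogene-like copy HSPA7.

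Genes around the chaperones were read from lists of known partners. Of the heat shock factor list, 2 of 6 tested genes fell under TSA and 0 rose. HSF1, the main activator of the heat shock response, had 55.1, 40.5 and 62.4 CPM under TSA, against 95.4, 63.5 and 75.4 CPM untreated, with a log2 change of -0.56 ± 0.14 (adjusted p = 0.0161). HSBP1L1, a relative of an HSF1-binding protein, fell by 2.69 (adjusted p = 0.00257). Of 18 HSP90 cochaperones, 8 fell and 2 rose under TSA. PTGES3, the cochaperone p23, had 335, 315 and 206 CPM under TSA, against 858, 653 and 474 CPM untreated (-1.19 ± 0.16, adjusted p = 0.00206), and AHSA2 and FKBP4 fell by 1.08 and 1.04. The increases were CDC37 (0.65 ± 0.13), which loads kinases onto HSP90, and UNC45A (0.96 ± 0.14), a myosin chaperone, both named after their values were seen.

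Of the 8 subunits of TRiC, the cytosolic chaperonin for actin and tubulin, 4 fell under TSA and 0 rose. CCT5 fell by 1.20, CCT6A by 1.11 and CCT4 by 0.77 on the log2 scale, and the median of the 8 was -0.64. Under GSK126 all 8 were called lower by DESeq2 and by edgeR without the TSA libraries (median -0.60), while edgeR with all 12 libraries called 0 and put 8 at an unadjusted p under 0.05. Of 6 prefoldin subunits, which hand clients to TRiC, PFDN4 (-1.35 ± 0.16, adjusted p = 0.00153) and VBP1 (-1.09 ± 0.20, adjusted p = 0.00489) fell under TSA and 0 rose. Of 11 HSP70 exchange factors and partners, BAG2 and BAG5 fell and SGTB rose. BAG2, an inhibitor of client ubiquitination, had 10.4 and 5.92 CPM in TSA-treated MHCC97H and A549, against 81 and 45.1 CPM untreated, but 41.1 CPM under TSA and 41.5 CPM untreated in HCT116 (-1.80 ± 0.55, adjusted p = 0.0326).

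Of 14 genes of mitochondrial protein quality control, 4 fell and 1 rose under TSA. GRPEL2, an exchange factor of HSPA9, fell by 1.04 (adjusted p = 0.00521) and the protease LONP1 by 0.74 (adjusted p = 0.0339), while the protease HTRA2 rose by 0.84 (adjusted p = 0.00731). TRAP1 and GRPEL1, on the same list, were not called (-0.41 ± 0.15 and -0.46 ± 0.22, adjusted p = 0.0615 and 0.124). Of the 10 endoplasmic reticulum chaperones left out by the naming rule, CALR rose (0.67 ± 0.22, adjusted p = 0.0397) and its partner in glycoprotein folding, CANX, fell (-0.71 ± 0.14, adjusted p = 0.00599). Of 4 J-domain genes without a DNAJ symbol, GAK, an auxilin, rose by 0.48 and SEC63, a part of the endoplasmic reticulum translocon, fell by 0.48 (adjusted p = 0.0488 and 0.0279). The 1 tested crystallin was not called. Read against 17.2% of all genes lower under TSA, the share that fell was 50% in the TRiC list, 44.4% in the HSP90 cochaperones, 33.3% in both the prefoldin and the heat shock factor lists and 28.6% in mitochondrial quality control. It was 25% in the J-domain genes without a DNAJ symbol, 18.2% in the HSP70 partners, 10% in the endoplasmic reticulum chaperones and 0% for the crystallin, and these shares were not tested further.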

How the data were processed

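Poly(A) RNA libraries (NEBNext Ultra, per the labels' protocols) of 12 cultures were analysed. Each library has 1 table in which the authors deposited the read count of every gene symbol and RPKM values by longest transcript, per the file headers. The submitters' processing notes name the builds GRCh38 and hg38; the aligner, counter, strand setting and treatment of shared reads were not given in the sources used here. Of 25648 listed genes, ZZZ3, absent from 1 table, was left out, as was an entry without a gene name in 11 tables. RPKM served only to compare levels between genes.

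The counts were tested with edgeR 4.0.16 (R 4.3.3): TMM scaling, filterByExpr (16929 genes kept), quasi-likelihood F test, condition and cell line as terms over all 12 libraries, 6 residual degrees of freedom, common biological coefficient of variation 0.296, calls at Benjamini-Hochberg adjusted p under 0.05. Scripts were tested on simulated data. Differences in level between lines were taken up by the line term. P-values thus measure a change against how far changes differed from line to line, pooled over the 4 conditions, and not against repeat cultures. The line given in the labels pairs treated and untreated libraries; deviations of libraries of the same line correlated at 0.695 to 0.949 over 18 pairs. Ratios within a line used scaled CPM plus 1.

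Alternatives were RLE size factors, no filter, at least 10 CPM in 3 libraries, no line term, leaving out each line, the TSA libraries, the S2101 libraries or the A549 S2101 library, the 6 libraries compared, and DESeq2 1.42.0; for ratios, library totals, a pseudocount of 0.25 CPM and all genes with a read. Tables and figures used Python 3.11.15, pandas 2.3.3 and matplotlib 3.10.9. Promoter windows and coordinates are RefSeq's, build GRCh38.p14. Through their transcript identifiers, 69 of 70 genes matched. The genes, lists and tests were chosen with earlier results of these data known. Genes were named by rule: a fixed set of 12 chaperones, per class and compound up to 4 called members with at least 2 CPM in the higher condition (or the 1 with the largest change), per class up to 3 members differing between lines, and per partner list up to 3 called genes. Other genes named (DNAJA3, DNAJB12, DNAJC7, DNAJC8, DNAJC11, DNAJC13, DNAJC16, DNAJC17, DNAJC19, DNAJC22, HSPA4, HSPA6, HSPB3, HSPB11, CDC37, UNC45A, TRAP1, GRPEL1 and those with few counts) were chosen after their values were seen.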

Additional observations from a re-analysis of the deposited data

Results flagged for a closer look

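There were 8 results that stood out because lines moved in opposite directions, by at least 0.5 on the log2 scale each, under the same compound. The difference between lines was not tested in any of them, and each ratio compares 1 library with 1 library. Under TSA, HSPB8 had a ratio of 2.11 in HCT116 and -1.10 in MHCC97H, a gap of 3.21 on the log2 scale. DNAJC16 differed by 1.6 between A549 (0.81) and HCT116 (-0.79), DNAJA4 by 1.54 (0.58 and -0.96), HSPB11 by 1.5 (0.50 and -1.0) and HSPA13 by 1.13 (0.59 and -0.54) between the same lines. DNAJA4 had 13 counts in TSA-treated A549, against 3 untreated, so its ratio there rests on few reads. Under GSK126, DNAJC18 differed by 1.64 between A549 (0.94) and HCT116 (-0.70), and DNAJB4 by 1.09 between HCT116 (0.55) and MHCC97H (-0.54). Under S2101, DNAJC6 differed by 1.15 between HCT116 (0.53) and MHCC97H (-0.63).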

How the results depend on the processing

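The number of calls depended on the lines and on the shared spread more than on scaling or filtering. None of the 29 chaperones called for TSA against untreated reversed direction in the alternatives that tested them. Under TSA against untreated, 5851 genes and 29 chaperones were called, with 12 to 6495 genes and 1 to 30 chaperones when 1 line was left out (lowest without A549; 1152 and 10 without MHCC97H). Without the replicate block (no line term) 257 genes and 5 chaperones were called, and in the 6 libraries compared 0 and 0. TSA against GSK126 gave 4901 genes and 23 chaperones, with 0 to 5496 and 0 to 24 without 1 line (1088 and 9 without MHCC97H, 0 and 0 without A549), 14 and 0 without the block, and 164 and 2 in the 6 libraries. TSA against S2101 gave 4505 and 25, with 0 to 5144 and 0 to 23 without 1 line (0 and 0 without MHCC97H, 17 and 1 without A549), 0 and 0 both without the block and in the 6 libraries, and 1926 and 12 without the A549 S2101 library. GSK126 against untreated gave 0 and 0, but 7 genes with RLE size factors, with no filter and with the filter of 10 CPM. It gave 434 genes and 2 chaperones in the 6 libraries, 1212 and 10 in DESeq2, and 2114 and 13 without the TSA libraries. S2101 against untreated gave 25 genes in the 6 libraries and 23 in DESeq2. The cell line test gave 11469 genes and 48 chaperones, with 6628 to 8052 and 15 to 34 without 1 line, and 30 chaperones without the 3 S2101 libraries. Of the 29 TSA calls, RLE size factors and no filter kept 29, DESeq2 kept 28, and the filter of 10 CPM kept 24 and did not test 5. With 1 library per line and condition, leaving out a line leaves 2 libraries per condition, and genes with few counts such as DNAJC28 are limited by depth.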
